A study of Caenorhabditis elegans with 11 samples.

Results

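Translation initiation factors place the small ribosomal subunit and the initiator transfer RNA at the start codon of a messenger RNA. In eukaryotes eIF2 carries the initiator transfer RNA with GTP, eIF2B reloads eIF2 with GTP, eIF3 is the large scaffold on the small subunit, and the cap is bound by eIF4E, which works with the scaffold eIF4G and the RNA helicase eIF4A. *Caenorhabditis elegans* has several eIF4E genes, named *ife-*, which differ in tissue and in the cap structures they bind. Genes were taken as members when their symbol began with *eif-*, *ife-* or *iff-* or was *ifg-1* or *inf-1*, and when they had at least 10 counts in at least 2 of the 11 libraries. This gave 34 genes of 15378 that passed the same minimum, and all 34 symbols that matched passed it. They comprised eIF1, eIF1A, 3 subunits of eIF2, 5 of eIF2B, 11 of eIF3, 5 eIF4E genes, 2 eIF5A genes, and single genes for eIF2A, eIF2D, eIF4G, eIF4A, eIF4A3 and eIF6.

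The libraries came from wild-type N2 (Bristol) animals that were kept from day 1 of adulthood for 96 hours at 20°C, up to day 5, on *Escherichia coli* HT115. The *xpo-1* RNAi groups ate bacteria making double-stranded RNA against *xpo-1*, the gene for the nuclear export receptor exportin 1, and the control groups ate HT115 carrying only the empty vector, L4440. Polyadenylated RNA was sequenced from whole-animal lysates (total RNA) and, after sucrose gradients of these lysates, from monosomes (1 ribosome per messenger RNA) and polysomes (several ribosomes). There were 2 libraries each of *xpo-1* RNAi total RNA, *xpo-1* RNAi polysome RNA, and of the 3 kinds of control RNA, and 1 library of *xpo-1* RNAi monosome RNA.

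Library totals lay between 15589628 and 21828657 counts, and the lowest count of a member in any library was 43. *xpo-1* itself was at 34.1 and 35.9 CPM (counts scaled to the size of the library) in *xpo-1* RNAi total RNA, against 295 and 241 CPM in control total RNA (log2 fold change -2.94, SE 0.18, adjusted p 6.91e-05). CPM were scaled within each RNA kind, so levels in total RNA, monosomes and polysomes are relative to the other genes of that kind. The control libraries with replicate number 2 stood apart from those with number 1 in sperm markers (8 genes, most of them *msp* genes), and in total RNA also in muscle, epidermis and pharynx markers. Sperm markers summed to 4.45 and 5.40 CPM in *xpo-1* RNAi libraries, against 74.2 and 331 CPM in control libraries. Early embryo markers (8 genes, of which *med-2* was at 0 in every library and *hlh-27* and *ceh-51* in some) summed to 3.58 and 4.002 CPM in *xpo-1* RNAi libraries, against 15.6 and 13.5 CPM in control libraries. Somatic markers differed too, none of them at 0 in any library. In total RNA the 4 epidermis markers (2 called lower and none higher) summed to 507 and 450.5 CPM in *xpo-1* RNAi libraries, against 1525 and 2365 CPM in control libraries. The 4 muscle markers (3 lower and none higher) summed to 973 and 1141 CPM in *xpo-1* RNAi libraries, against 1280.2 and 2388 CPM in control libraries, and the 3 pharynx markers (1 lower and none higher) to 28.2 and 41.6 CPM in *xpo-1* RNAi libraries, against 44.7 and 95.9 CPM in control libraries. In polysome RNA the 4 epidermis markers (2 lower and 1 higher) summed to 309 and 285 CPM in *xpo-1* RNAi libraries, against 1289 and 1639 CPM in control libraries, and the 6 intestine markers (2 lower and 3 higher) to 24530.5 and 20463 CPM in *xpo-1* RNAi libraries, against 10178 and 8066 CPM in control libraries. Most of each epidermis sum was *col-19*, and most of each intestine sum was *vit-2* and *vit-6*, so these sums mainly follow those genes. The part of these marker differences in the members' values was not tested. Whole animals were sampled, so fewer cells of a type and less RNA per cell cannot be told apart.

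Many initiation factor messenger RNAs fell under *xpo-1* RNAi. In total RNA 13 of the 34 members (38.2%) were called lower (edgeR, adjusted p under 0.05 and fold over 1.5) and none higher, against 16.9% of all genes called lower and 12.0% called higher (28.9% in either direction). In polysome RNA 19 members (55.9%) were called lower and none higher, against 22.4% and 15.5% of all genes (37.9% in either direction). The called members included eIF1, eIF1A, both eIF5A genes, eIF4A and, in polysome RNA, 8 of 11 eIF3 subunits, and 12 members were called in both RNA kinds. *ife-3* was called in total RNA and not in polysome RNA, and 7 members (*eif-2beta*, *eif-3.F*, *eif-3.G*, *eif-3.K*, *eif-6*, *ife-2* and *ife-4*) in polysome RNA and not in total RNA. The 14 members called in neither were all eIF2B subunits, *eif-2gamma*, *eif-2A*, *eif-2D*, *eif-3.B*, *eif-3.D*, *eif-3.L*, *eif-4A3*, *ife-5* and *ifg-1*.

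The median log2 fold change over the members was -0.50 in total RNA and -0.79 in polysome RNA, against 0.01 and -0.01 over all genes tested, and 30 of 34 members had a negative value in each (scaling by total counts alone turned 10 of these positive in total RNA and 7 in polysome RNA). Every *xpo-1* RNAi library was below every control library for 24 members in total RNA and 27 in polysome RNA (background 34.3% and 37.4% of genes), and above for 2 members in each (34.6% and 35.2%). The unadjusted p was under 0.05 with a higher level for 1 member (*eif-2D*) in total RNA and 0 in polysome RNA, and DESeq2 called no member higher in either. Members took 0.685% and 0.648% of all counts in *xpo-1* RNAi total RNA, against 0.862% and 0.819% in control total RNA. In polysome RNA they took 0.631% and 0.682% of counts under *xpo-1* RNAi, against 0.986% and 1.04% in controls. The counts of called members moved with single libraries, and so did the share of all genes called. Leaving out *xpo-1* RNAi total replicate 2 put the members' median log2 fold change at -0.37, against -0.03 over all genes. Leaving out *xpo-1* RNAi polysome replicate 1 put it at -0.61, against -0.03, and leaving out replicate 2 at -0.86, against -0.02. Without control total replicate 2 it was -0.53, against 0.03, and without control polysome replicate 2 it was -0.81, against 0.03. Scaling by total counts alone put the median of all genes at 0.30 in total RNA and 0.40 in polysome RNA. In total RNA it gave 6 members lower and 1 higher (*eif-2D*), against 1647 lower and 3305 higher of 13795 genes. In polysome RNA it gave 9 members lower and 3 higher (*eif-2D*, *eif-4A3* and *ifg-1*), against 2209 lower and 4503 higher of 13940 genes. The members' median differed by -0.52 and -0.78 from that of all genes under this scaling, and by -0.51 and -0.78 under the scaling used for the other values.

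**Figure D1:**
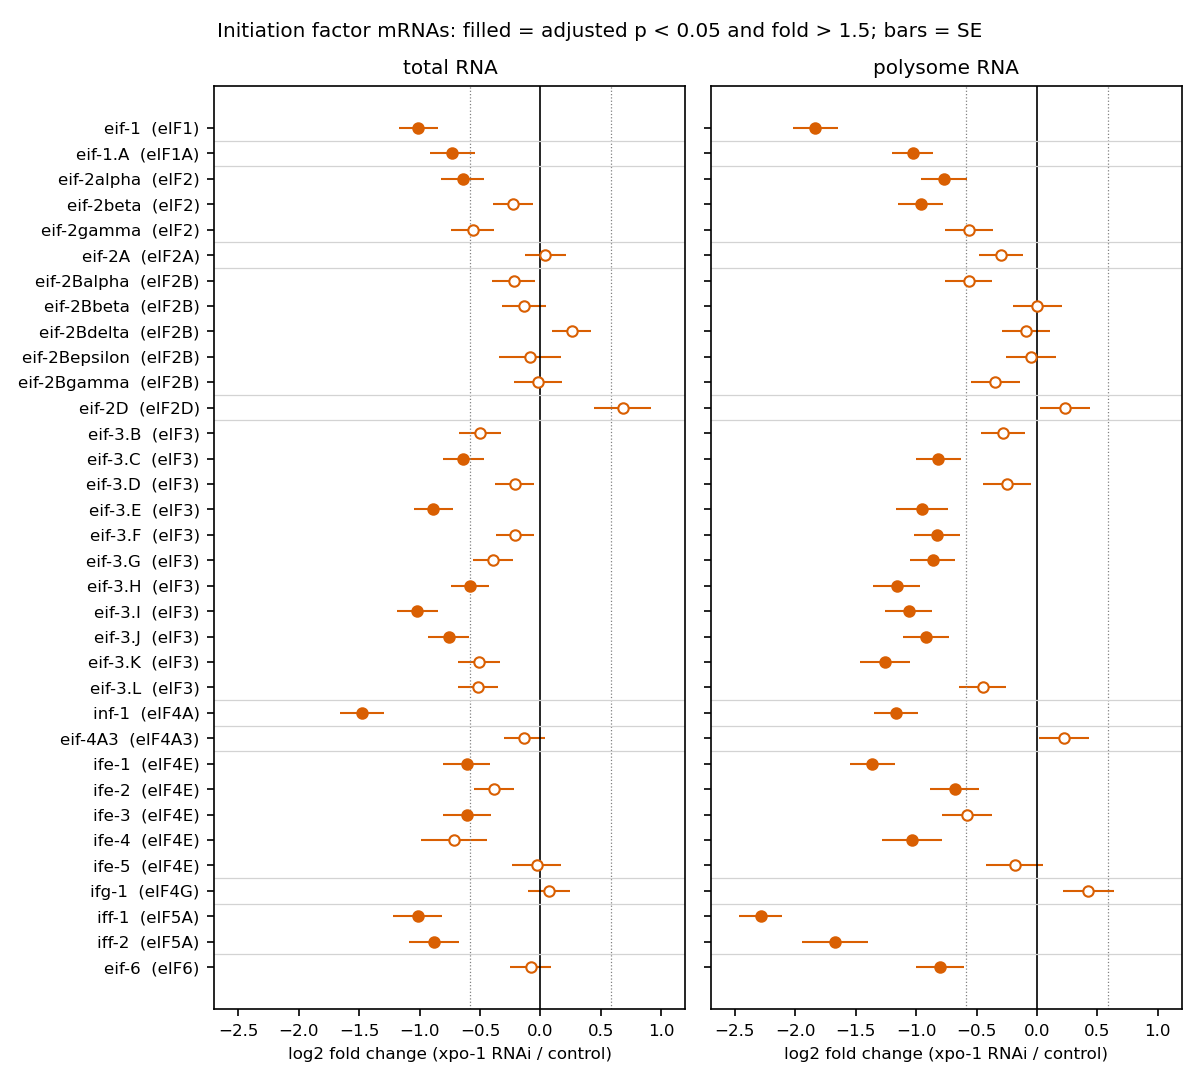
Log2 fold change (*xpo-1* RNAi over control, horizontal axis) of the 34 initiation factor genes in total RNA (left) and polysome RNA (right), grouped by factor down the page, with standard errors as bars, filled points for called members and dotted lines at a fold of 1.5. The 13 filled points in total RNA and the 19 in polysome RNA all lie left of 0, while the 5 eIF2B subunits lie between -0.57 and 0.26.

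Among the factors that scan for the start codon, *eif-1* (WBGene00020868, chromosome II, 4990831 to 4993580, minus strand) encodes eIF1, which keeps the scanning complex open. It was at 128 and 111 CPM in *xpo-1* RNAi total RNA, against 240.1 and 241 CPM in control total RNA. Polysome levels were 152 and 167 CPM under *xpo-1* RNAi, against 536 and 604 CPM in controls. Both pairs were far apart, with *xpo-1* RNAi at 49.7% of the control mean in total RNA (log2 fold change -1.01, SE 0.16, adjusted p 0.00158) and 28.02% in polysome RNA (log2 fold change -1.84, SE 0.19, adjusted p 0.000357). *eif-1* had the lowest log2 fold change of the factors with a single gene in polysome RNA. *eif-1.A*, the gene for eIF1A, which acts with eIF1 in scanning, was at 60.3% of control in total RNA (adjusted p 0.0145) and 49.03% in polysome RNA (adjusted p 0.00219).

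eIF2 has 3 subunits, of which alpha carries the serine that stress kinases phosphorylate and gamma binds GTP and the initiator transfer RNA. *eif-2alpha* (WBGene00021351, chromosome I, 2072680 to 2076906, plus strand) was at 344 and 288 CPM in *xpo-1* RNAi total RNA, against 495 and 492 CPM in control total RNA, and it fell (log2 fold change -0.64, SE 0.18, adjusted p 0.0201). Its polysome levels were 320.3 and 407 CPM under *xpo-1* RNAi, against 603 and 636 CPM in controls (log2 fold change -0.77, SE 0.19, adjusted p 0.0136). In both RNA kinds the groups did not overlap. *eif-2beta* (WBGene00010560, chromosome I, 8026606 to 8028752, minus strand), the subunit that contacts eIF5 and eIF2B in yeast, was at 181 and 161 CPM in *xpo-1* RNAi total RNA, against 209 and 191 CPM in control total RNA, which did not pass the test (log2 fold change -0.23, SE 0.16, adjusted p 0.323). In polysomes it was at 152 and 159 CPM under *xpo-1* RNAi, against 288 and 318 CPM in controls, and there it fell (log2 fold change -0.96, SE 0.19, adjusted p 0.00459). *eif-2gamma* (WBGene00021466, chromosome I, 2313271 to 2316003, plus strand) stood at 370.0 and 315 CPM in *xpo-1* RNAi total RNA, against 511 and 499 CPM in control total RNA, below control with an adjusted p of 0.0344 but a fold under 1.5. Its polysome levels of 275 and 354 CPM under *xpo-1* RNAi, against 494 and 435 CPM in controls, missed the threshold (adjusted p 0.0547). Of the 3 subunits, alpha was called in both RNA kinds, beta in polysome RNA, and gamma in neither.

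None of the 5 subunits of eIF2B, the exchange factor for eIF2, was called in either RNA kind. *eif-2Bdelta* (WBGene00008670, chromosome V, 9513824 to 9517585, plus strand), a regulatory subunit, had the highest log2 fold change of the 5 in total RNA, with 53.5 and 52.9 CPM under *xpo-1* RNAi, against 46.6 and 42.4 CPM in controls (log2 fold change 0.26, SE 0.17, adjusted p 0.266). Polysome RNA held 38.4 and 33.8 CPM under *xpo-1* RNAi, against 40.8 and 36.1 CPM in controls (log2 fold change -0.09, SE 0.20, adjusted p 0.751). It shares 67 bases of exon with C50F4.8 on the other strand, which had up to 433 counts in a library. *eif-2Balpha* (WBGene00014221, chromosome III, 9543069 to 9544404, plus strand), another regulatory subunit, had the lowest value in both RNA kinds. In total RNA it was at 34.3 and 30.2 CPM under *xpo-1* RNAi, against 38.8 and 36.3 CPM in controls (log2 fold change -0.22, SE 0.18, adjusted p 0.372). Its polysome levels were 32.7 and 35.4 CPM under *xpo-1* RNAi, against 50.4 and 50.4 CPM in controls, and its adjusted p of 0.0494 passed while its fold stayed under 1.5 (log2 fold change -0.57). *eif-2Bbeta* (WBGene00012950, chromosome I, 11891549 to 11893727, minus strand) had the highest polysome value, at 28.7 and 31.5 CPM under *xpo-1* RNAi, against 32.3 and 27.8 CPM in controls (log2 fold change 0.00, SE 0.20, adjusted p 0.993). Its total RNA levels were 38.1 and 34.0 CPM under *xpo-1* RNAi, against 43.7 and 35.5 CPM in controls (adjusted p 0.618). The catalytic subunit *eif-2Bepsilon* and its partner *eif-2Bgamma* had log2 fold changes of -0.09 and -0.02 in total RNA. Per exonic length (RPKM), the median eIF2 subunit stood 8.57 and 7.38 times above the median eIF2B subunit in *xpo-1* RNAi total RNA, against 13.6 and 14.6 times in control total RNA. This ratio was thus lower in both *xpo-1* RNAi libraries than in both controls. In monosome RNA it ran the other way, at 15.3 times in the single *xpo-1* RNAi library, against 9.19 and 6.90 times in controls. Neither was tested.

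*eif-2A* and *eif-2D* encode factors that in mammals can bring the initiator transfer RNA without eIF2. *eif-2D* (WBGene00016113, chromosome II, 5691662 to 5693939, plus strand) had the highest log2 fold change of all members in total RNA, at 18.1 and 14.4 CPM under *xpo-1* RNAi, against 11.5 and 8.88 CPM in controls. Both *xpo-1* RNAi libraries were above both controls, but the difference missed the threshold (log2 fold change 0.68, SE 0.24, adjusted p 0.0533). Polysomes held 33.4 and 28.3 CPM under *xpo-1* RNAi, against 27.95 and 24.4 CPM in controls (log2 fold change 0.23, SE 0.21, adjusted p 0.403). *eif-2D* passed in total RNA under 5 of the alternatives tried, among them no count minimum (log2 fold change 0.70) and leaving out control total replicate 1 (0.84). *eif-2A* had log2 fold changes of 0.04 (total RNA) and -0.30 (polysome RNA), and neither passed.

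Of the 11 eIF3 members 5 were called lower in total RNA (*eif-3.C*, *eif-3.E*, *eif-3.H*, *eif-3.I* and *eif-3.J*), against 16.9% of all genes. In polysome RNA 8 of 11 were called lower (these 5 with *eif-3.F*, *eif-3.G* and *eif-3.K*), against 22.4% of all genes. The median log2 fold changes of the 11 were -0.52 and -0.86. All 11 members had a negative log2 fold change in both RNA kinds, except that scaling by total counts gave positive values to *eif-3.D* (0.073) and *eif-3.F* (0.078) in total RNA and to *eif-3.B* (0.12) and *eif-3.D* (0.16) in polysome RNA. Under that scaling *eif-3.E* and *eif-3.I* kept their calls in total RNA, and *eif-3.H*, *eif-3.I* and *eif-3.K* in polysome RNA. A pair of eIF3 subunits have other symbols and are not among the 11. *egl-45*, the gene for subunit A, was in polysome RNA at 271 and 284 CPM under *xpo-1* RNAi, against 235.3 and 187 CPM in controls (log2 fold change 0.39, SE 0.20, adjusted p 0.150), higher in both *xpo-1* RNAi libraries but not past the test, and had a log2 fold change of -0.24 in total RNA (adjusted p 0.303). *cif-1*, the gene for subunit M, fell in polysome RNA, at 139 and 169.9 CPM under *xpo-1* RNAi, against 273 and 259 CPM in controls (log2 fold change -0.78, SE 0.20, adjusted p 0.0142), and had a log2 fold change of -0.43 in total RNA (adjusted p 0.0757). The members called in neither were *eif-3.B*, part of the core that yeast also has, *eif-3.D*, which binds the cap of some messenger RNAs in human cells, and *eif-3.L*, which yeast lacks.

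*eif-3.I* (WBGene00001232, chromosome I, 2485867 to 2489780, plus strand), a core subunit, had the lowest value in total RNA. It was at 179 and 153 CPM under *xpo-1* RNAi, against 347 and 326 CPM in controls (log2 fold change -1.02, SE 0.17, adjusted p 0.00182). Its polysome levels were 208 and 247 CPM under *xpo-1* RNAi, against 510.1 and 438 CPM in controls (log2 fold change -1.06, SE 0.19, adjusted p 0.00357). *eif-3.I* was thus at 49.3% of control in total RNA and 48.0% in polysomes. *eif-3.K* (WBGene00001233, chromosome V, 12954002 to 12955229, plus strand), a small accessory subunit, had the lowest polysome value, at 61.3 and 74.7 CPM under *xpo-1* RNAi, against 158 and 168 CPM in controls (log2 fold change -1.26, SE 0.21, adjusted p 0.00217). In total RNA it was at 96.8 and 75.3 CPM under *xpo-1* RNAi, against 119 and 125 CPM in controls, and was not called (log2 fold change -0.51, SE 0.17, adjusted p 0.0501).

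At the other end, *eif-3.F* (WBGene00001229, chromosome II, 9331643 to 9333925, plus strand) had the log2 fold change nearest 0 in total RNA, with 103 and 96.4 CPM under *xpo-1* RNAi, against 119 and 111 CPM in controls (log2 fold change -0.21, SE 0.16, adjusted p 0.339). Its polysome levels were 99.0 and 107 CPM under *xpo-1* RNAi, against 180.2 and 185 CPM in controls, and these fell (log2 fold change -0.83, SE 0.19, adjusted p 0.00997). *eif-3.D* (WBGene00001227, chromosome III, 8969638 to 8971578, minus strand) had the value nearest 0 in polysome RNA, with 143 and 172 CPM under *xpo-1* RNAi, against 198 and 175 CPM in controls (log2 fold change -0.25, SE 0.20, adjusted p 0.361). In total RNA it was at 238 and 218 CPM under *xpo-1* RNAi, against 272 and 257 CPM in controls (log2 fold change -0.21, SE 0.16, adjusted p 0.349). It shares 21 bases of exon with *rpap-2* on the other strand, and *eif-3.H* shares 22 with *cps-6*, which had up to 1357 counts in a library.

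eIF3 acts as a complex, and its subunits' messenger RNAs were unequal per length. The highest subunit stood above the lowest by 4.88 and 4.09 times in *xpo-1* RNAi total RNA, against 5.03 and 5.82 times in control total RNA. The median subunit was at 115 and 89.5 RPKM under *xpo-1* RNAi, against 145 and 142.5 RPKM in controls. In polysome RNA the median subunit was at 78.9 and 93.6 RPKM under *xpo-1* RNAi, against 149 and 153 RPKM in controls. *eif-3.L* was the lowest subunit in every control library, and *eif-3.C* or *eif-3.H* took that place in 4 of the 5 *xpo-1* RNAi libraries.

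All 5 cap-binding eIF4E genes had a negative log2 fold change in both RNA kinds, though that of *ife-5* turned positive with scaling by total counts. *ife-1* was called lower in both RNA kinds, *ife-3* in total RNA, *ife-2* and *ife-4* in polysome RNA, and *ife-5* in neither. Whether the 5 genes differed from each other was not tested by these calls. Scaling by total counts ended these calls except that of *ife-1* in polysome RNA. *ife-1*, *ife-3* and *ife-5* are known from the germ line, *ife-1* being needed for sperm formation, while *ife-2* and *ife-4* act in somatic tissues. *ife-1* (WBGene00002059, chromosome III, 13343574 to 13344616, plus strand) was at 439.6 and 326 CPM in *xpo-1* RNAi total RNA, against 588 and 581 CPM in control total RNA (log2 fold change -0.61, SE 0.19, adjusted p 0.0371). Polysome *ife-1* stood at 303 and 366 CPM under *xpo-1* RNAi, against 814 and 904 CPM in controls (log2 fold change -1.36, SE 0.19, adjusted p 0.000998). Its polysome level was thus at 38.9% of control, the lowest of the 5, and the groups were well apart. Sperm markers moved the same way, with 7 of 8 called lower in both RNA kinds (*spe-11* at 0 in some library), and in polysome RNA they summed to 5.69 and 5.93 CPM in *xpo-1* RNAi libraries, against 165 and 823 CPM in control libraries. Their part in the *ife-1* difference was not tested.

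*ife-3* (WBGene00002061, chromosome V, 6588 to 7822, minus strand), the isoform closest to the main mammalian eIF4E, was at 486 and 357 CPM in *xpo-1* RNAi total RNA, against 673 and 613 CPM in control total RNA (log2 fold change -0.61, SE 0.20, adjusted p 0.0414). Polysome *ife-3* was at 443 and 579.9 CPM under *xpo-1* RNAi, against 854 and 678 CPM in controls (log2 fold change -0.58, SE 0.21, adjusted p 0.0541). The groups did not overlap in either RNA kind, although the polysome difference missed the threshold. *ife-2* (WBGene00002060, chromosome X, 381338 to 382709, minus strand), whose loss is known to lengthen life, was at 63.5 and 56.8 CPM in *xpo-1* RNAi total RNA, against 74.4 and 82.6 CPM in control total RNA (log2 fold change -0.38, SE 0.16, adjusted p 0.0988). Its polysome levels of 76.0 and 84.5 CPM under *xpo-1* RNAi, against 118 and 139 CPM in controls, passed the test (log2 fold change -0.68, SE 0.20, adjusted p 0.0294). *ife-4* (WBGene00002062, chromosome X, 1104212 to 1106247, plus strand) was at 4.19 and 3.71 CPM in *xpo-1* RNAi total RNA, against 6.47 and 6.52 CPM in control total RNA (log2 fold change -0.72, SE 0.27, adjusted p 0.0723). In polysomes *ife-4* had 6.83 and 8.87 CPM under *xpo-1* RNAi, against 14.5 and 17.7 CPM in controls, and was called lower (log2 fold change -1.03, SE 0.25, adjusted p 0.0122). *ife-5* (WBGene00002063, chromosome II, 12280662 to 12284133, plus strand) overlapped between the groups in total RNA, at 26.0 and 20.5 CPM under *xpo-1* RNAi, against 23.6 and 23.9 CPM in controls (log2 fold change -0.03, SE 0.20, adjusted p 0.920). In polysome RNA it was at 10.1 and 11.7 CPM under *xpo-1* RNAi, against 13.5 and 11.3 CPM in controls (log2 fold change -0.18, SE 0.23, adjusted p 0.567). Reads that *ife-* genes share as paralogues could be assigned to either, and the treatment of such reads was not given in the sources used here.

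**Figure D2:**
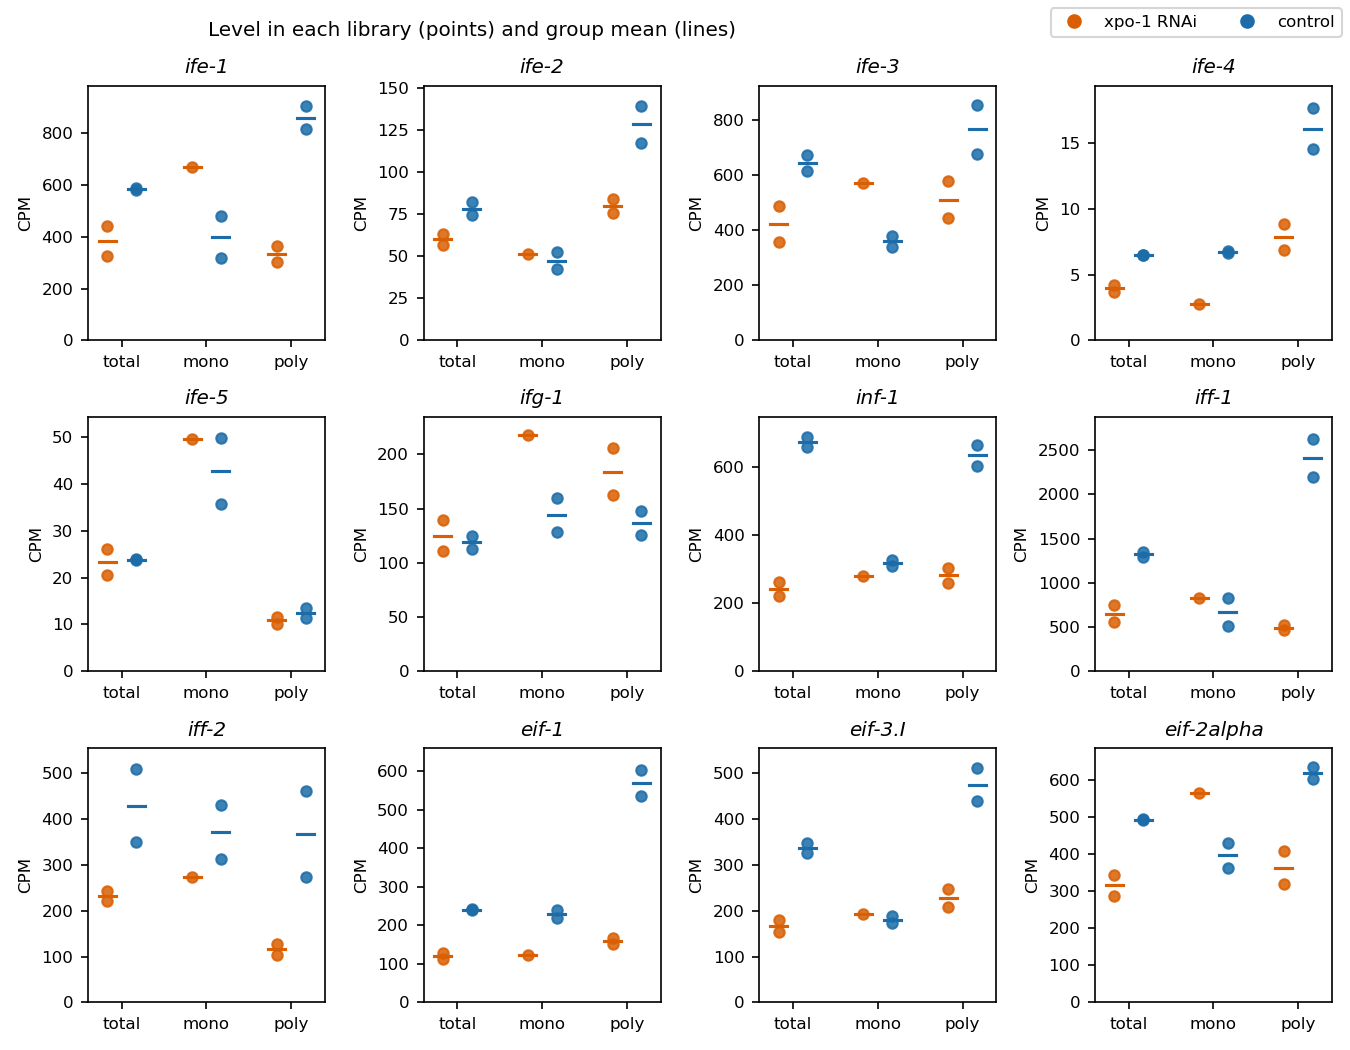
Level in CPM (vertical axes from 0, scaled within each RNA kind) of 12 members in total, monosome and polysome RNA, with *xpo-1* RNAi libraries in orange left of control libraries in blue, a point per library and a line at the group mean. The polysome points of *ife-1*, *inf-1*, *iff-1*, *iff-2* and *eif-1* lie lower in both *xpo-1* RNAi libraries than in both controls, while those of *ifg-1* lie higher.

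As shares of the summed RPKM of the 5 genes, *ife-1* and *ife-3* made up most eIF4E messenger RNA in every library. In total RNA *ife-1* took 49.6% and 48.99% under *xpo-1* RNAi, against 49.6% and 50.8% in controls, and *ife-3* took 41.4% and 40.5% under *xpo-1* RNAi, against 42.8% and 40.5% in controls. These ranges lay close together. In polysome RNA *ife-1* took 42.0% and 40.7% under *xpo-1* RNAi, against 51.1% and 57.5% in controls. *ife-3* took 46.3% and 48.7% of polysome eIF4E under *xpo-1* RNAi, against 40.5% and 32.5% in controls. *ife-3* was thus the more abundant of the pair in both *xpo-1* RNAi polysome libraries and *ife-1* in both control polysome libraries. *ife-2* took 9.98% and 8.91% under *xpo-1* RNAi, against 7.01% and 8.40% in controls, and *ife-5* took 1.74% and 1.83% of total RNA eIF4E under *xpo-1* RNAi, against 1.18% and 1.24% in controls. *ife-4* took 0.467% and 0.552% of total RNA eIF4E under *xpo-1* RNAi, against 0.539% and 0.564% in controls. Shares were described and not tested.

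**Figure D3:**
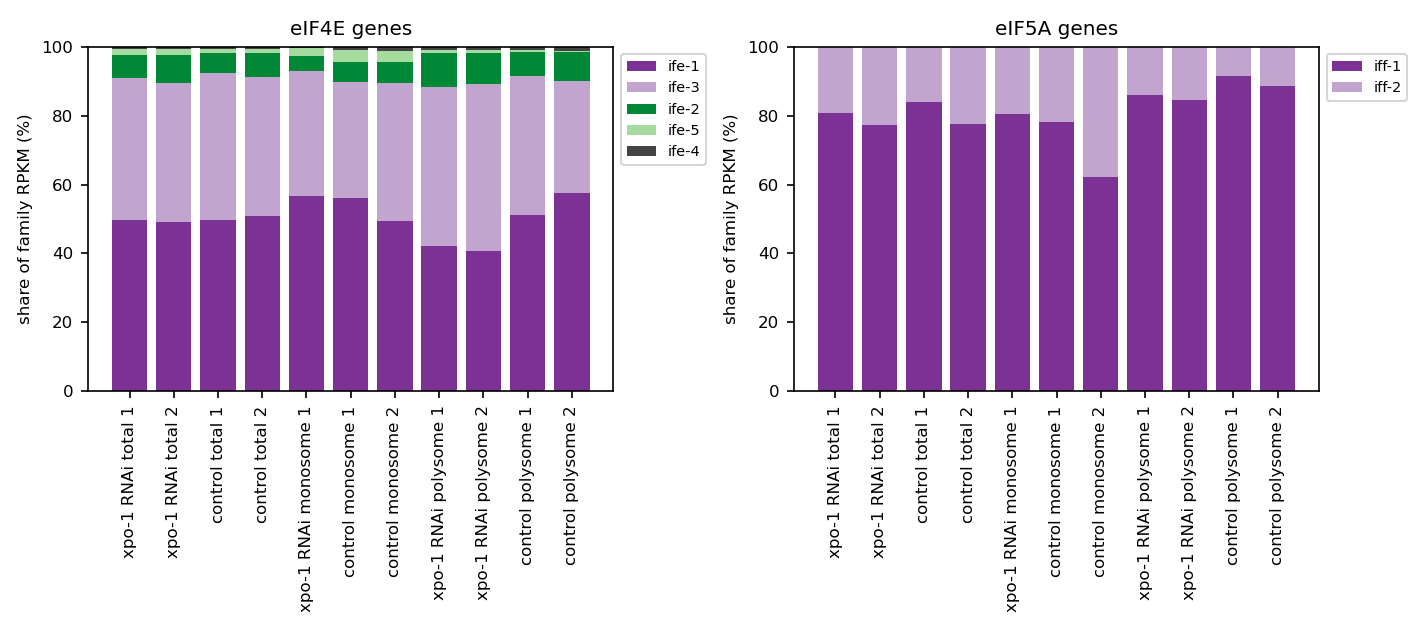
Share of summed RPKM (%, stacked bars, a bar per library) of the 5 eIF4E genes (left) and the 2 eIF5A genes (right), with *xpo-1* RNAi libraries left of control libraries for each RNA kind. In polysome RNA *ife-1* takes 42.0% and 40.7% of eIF4E under *xpo-1* RNAi, against 51.1% and 57.5% in controls, and *iff-1* is the larger part of eIF5A in every library.

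The partners of eIF4E went different ways. *inf-1* (WBGene00002083, chromosome III, 6930039 to 6931953, plus strand), the gene for the helicase eIF4A, was at 262 and 222 CPM in *xpo-1* RNAi total RNA, against 659.9 and 689 CPM in control total RNA (log2 fold change -1.48, SE 0.18, adjusted p 0.000393). This was 35.9% of control and the lowest log2 fold change of all members in total RNA. Among polysomes *inf-1* was at 260.4 and 305 CPM under *xpo-1* RNAi, against 667 and 604 CPM in controls (log2 fold change -1.17, SE 0.18, adjusted p 0.00184). *ifg-1* (WBGene00002066, chromosome II, 8217231 to 8222395, plus strand), the gene for the scaffold eIF4G, was at 111 and 139 CPM in *xpo-1* RNAi total RNA, against 125 and 113 CPM in control total RNA, which overlapped (log2 fold change 0.07, SE 0.17, adjusted p 0.782). Its polysome levels were 206 and 162 CPM under *xpo-1* RNAi, against 148 and 126 CPM in controls, higher in both libraries but not past the test (log2 fold change 0.42, SE 0.21, adjusted p 0.146). *ifg-1* had the highest log2 fold change of the members in polysome RNA. Per length, *inf-1* exceeded *ifg-1* by 6.58 and 4.44 times in *xpo-1* RNAi total RNA, against 14.7 and 16.96 times in control total RNA. In polysome RNA the ratio was 3.52 and 5.23 under *xpo-1* RNAi, against 12.5 and 13.3 in controls. *eif-4A3*, whose product is a helicase of the exon junction complex and related to eIF4A, had log2 fold changes of -0.13 (total RNA) and 0.23 (polysome RNA) (adjusted p 0.592 and 0.421).

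The *iff* genes encode eIF5A, the only protein known to carry the modified amino acid hypusine, which acts in elongation as well as initiation. *iff-1* is known from the germ line and *iff-2* from the soma, and reads that fit both paralogues could have been assigned to either. *iff-1* (WBGene00002064, chromosome III, 9745864 to 9747193, minus strand) was the most abundant member per length in every library and had the lowest log2 fold change in polysome RNA. It was at 748 and 558 CPM in *xpo-1* RNAi total RNA, against 1349 and 1294 CPM in control total RNA (log2 fold change -1.02, SE 0.21, adjusted p 0.00486). In polysome RNA it was at 469 and 519 CPM under *xpo-1* RNAi, against 2197 and 2629 CPM in controls (log2 fold change -2.29, SE 0.18, adjusted p 0.000156). The *xpo-1* RNAi level was 49.4% of control in total RNA and 20.5% in polysomes, without overlap. *iff-2* (WBGene00002065, chromosome II, 8559394 to 8561352, minus strand) was at 243 and 222 CPM in *xpo-1* RNAi total RNA, against 349.9 and 508 CPM in control total RNA (log2 fold change -0.88, SE 0.21, adjusted p 0.00959). Its polysome levels were 103.6 and 128 CPM under *xpo-1* RNAi, against 274 and 462 CPM in controls, with the controls far from each other (log2 fold change -1.67, SE 0.27, adjusted p 0.00218). Both paralogues were thus called lower in both RNA kinds. *iff-1* made up 80.7% and 77.4% of eIF5A messenger RNA (RPKM) in *xpo-1* RNAi total RNA, against 84.0% and 77.6% in control total RNA. Of polysome eIF5A messenger RNA it made up 86.0% and 84.7% under *xpo-1* RNAi, against 91.6% and 88.6% in controls. eIF5A as a whole took 17.2% and 16.9% of the members' summed RPKM in *xpo-1* RNAi polysome RNA, against 30.6% and 35.3% in control polysome RNA.

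Germline markers were set beside the germline members *iff-1*, *ife-1* and *ife-3*, of which each fell in at least 1 RNA kind, and *ife-5*, which was called in neither (log2 fold change -0.03 in total RNA and -0.18 in polysome RNA). The 8 markers (*glp-1*, *gld-1*, *pgl-1*, *pgl-3*, *glh-1*, *him-3*, *htp-3* and *syp-1*, none at 0 in any library) summed to 2389 and 2256 CPM in *xpo-1* RNAi libraries, against 3211 and 3019 CPM in control libraries, in total RNA, with *gld-1* called lower and *glp-1* higher. In polysome RNA they summed to 1628 and 1754 CPM in *xpo-1* RNAi libraries, against 1687 and 1325 CPM in control libraries, with none called lower and *glp-1* higher. The summed level of germline markers thus overlapped between the groups in polysomes, and was lower in both *xpo-1* RNAi libraries than in both controls in total RNA. *iff-1* was at 20.5% of control in polysomes and at 49.4% in total RNA. The part of germline differences in the values of these members was not tested. The 8 oocyte markers had none called in total RNA and 1 (*cbd-1*) called higher in polysome RNA. *eif-6*, the gene for eIF6, which binds the large ribosomal subunit and acts in its assembly and export, had a log2 fold change of -0.08 in total RNA (adjusted p 0.754) and fell in polysome RNA (log2 fold change -0.80, SE 0.20, adjusted p 0.0143).

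Whether polysome RNA changed beyond total RNA was tested as an interaction over 8 libraries. No member was called (edgeR), and none of all 14900 genes was (background 0%). At an unadjusted p under 0.05 there were 8 members (23.5%), all with a lower value in polysome RNA, against 16.1% of all genes. These were *iff-1*, *eif-1*, *eif-2beta*, *eif-3.F*, *eif-3.H*, *eif-3.K*, *ife-1* and *eif-6*. *iff-1* came nearest to the threshold (log2 fold change -1.22, SE 0.27, adjusted p 0.0972), and *eif-1* followed in the size of its difference with a value of -0.78 (adjusted p 0.138). With all 8 libraries DESeq2 called 2 of 34 members, *iff-1* and *eif-1*, both lower, against 383 lower and 282 higher of 14900 genes. Without control polysome replicate 1 the members' median log2 fold change was -0.17, against 0.01 over all genes. The fractions were made from the lysates. With treatment and replicate number as a block edgeR called 3 members lower (*iff-1*, *eif-1* and *eif-3.K*) and none higher. Of 14900 genes it called 976 lower and 985 higher. The count of 0 thus holds for the fit without that block. The median over members was -0.25, against 0.02 over all genes, but it was 0.10 without *xpo-1* RNAi total replicate 1 and 0.11 without *xpo-1* RNAi polysome replicate 1.

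In control animals, initiation factor messenger RNA lay more in polysomes than in monosomes for some factors and less for others. Of the 34 members 12 (35.3%) were called higher in polysome RNA and 2 (5.88%) lower (edgeR), against 14.7% and 18.3% of all genes (33.0% in either direction), and the members' median log2 ratio was 0.45, against 0.00. The higher ones were *eif-1*, *inf-1*, *iff-1*, *ife-1* to *ife-4* and the eIF3 subunits F, H, I, K and L. *iff-1* was at 2197 and 2629 CPM in control polysomes, against 827 and 517 CPM in control monosomes (log2 ratio 1.65, SE 0.30, adjusted p 0.00694). *eif-3.F* had a log2 ratio of 1.38 and *ife-2* of 1.25. The 2 lower members were *ife-5*, at 13.5 and 11.3 CPM in control polysomes, against 49.6 and 35.8 CPM in control monosomes (log2 ratio -1.97, SE 0.33, adjusted p 0.00529), and *eif-4A3* (log2 ratio -1.75, adjusted p 0.00553). *ife-5* was thus alone among the eIF4E genes in being called lower in polysomes. Fewer members were called when control monosome replicate 2, control polysome replicate 1 or control polysome replicate 2 was left out. The share of all genes called also fell, but only slightly without control monosome replicate 2 or control polysome replicate 1. The members' median log2 ratio without each of the 3 in turn was 0.54, 0.39 and 0.55, against 0.11, 0.01 and -0.09 over all genes. The log2 ratios were scaled over the 4 libraries together, whereas the CPM are scaled within each RNA kind.

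*xpo-1* RNAi monosomes were sampled in a single library, so the following was described and not tested. Of the members 4 were over 1.5-fold lower than the control mean and below both control libraries (*eif-1*, *eif-3.C*, *eif-3.H* and *ife-4*, background 22.1%), and 5 were higher in the same way (*eif-4A3*, *ife-1*, *ife-3*, *ifg-1* and *eif-6*, background 15.9%). The median log2 ratio in monosomes was 0.07 over members, against -0.06 over all genes. *ife-1*, lower in *xpo-1* RNAi polysomes, was at 669.7 CPM in the *xpo-1* RNAi monosome library, against 478 and 316 CPM in control monosomes. *iff-1* was at 825 CPM in that library, against 827 and 517 CPM in controls, and *eif-1* at 124 CPM, against 219 and 239 CPM. *ifg-1* was at 218 CPM in the *xpo-1* RNAi library, against 128 and 159.6 CPM in controls, and *inf-1* at 279.6 CPM, against 327 and 311 CPM.

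Translation efficiency was taken as the polysome over monosome ratio under *xpo-1* RNAi divided by that in controls. It was over 2-fold lower for 12 of 34 members (35.3%) and over 2-fold higher for none, against 15.8% and 8.0% of all genes, with a median log2 value of -0.77, against -0.02. *iff-1* had the lowest value (-2.61), with a log2 polysome over monosome ratio of -0.88 under *xpo-1* RNAi, against 1.73 in controls. *ife-1* (-2.14) and *eif-6* (-1.82) followed, and *eif-2D* had the highest value (0.38). Of the eIF4E genes, *ife-3* had -1.28, *ife-2* -0.82, *ife-5* -0.43 and *ife-4* 0.18, so that *ife-4* alone of the 5 was above 0. The eIF2B subunits ranged from -0.17 to 0.36. The count of 12 lay between 8 and 16 when single control libraries or *xpo-1* RNAi polysome libraries were left out (8 without control monosome replicate 2), while scaling by total counts gave 3 lower and 3 higher, with the median of all genes at 0.76 and that of members at 0.01.

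**Figure D4:**
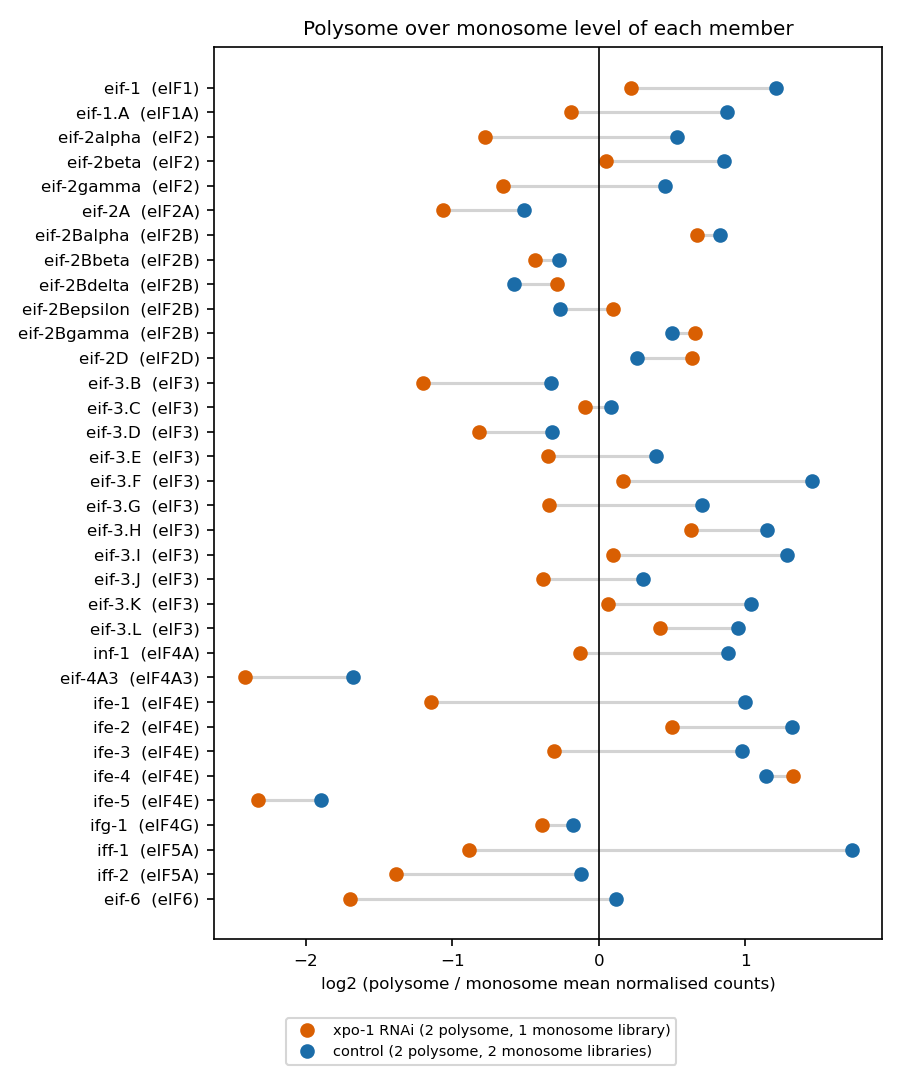
Log2 ratio of mean normalised counts in polysomes to those in monosomes (horizontal axis, size factors within each fraction) of each of the 34 members, with *xpo-1* RNAi in orange (2 polysome libraries, 1 monosome library) and control in blue (2 and 2 libraries). The grey line joins the groups, and it is longest for *iff-1* (-0.88 under *xpo-1* RNAi, against 1.73 in controls), with *ife-5* and *eif-4A3* far to the left in both groups.

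The members differ in length, which the rule did not use. Coding lengths (longest coding transcript) ran from 327 nt for *eif-1* to 3480 nt for *ifg-1*, with a median of 1000.5 nt, against 1056 nt over all genes. Short members had lower log2 fold changes. Across the 34 members the correlation with log2 coding length was Pearson's r = 0.68 and Spearman's rho = 0.65 in polysome RNA, and r = 0.41 and rho = 0.44 in total RNA. For the interaction it was r = 0.61 and rho = 0.57, and for translation efficiency r = 0.49 and rho = 0.47, with r = 0.40 and rho = 0.44 for translation efficiency over 13259 genes. These describe genes measured in the same libraries, which are not independent replicates. Each of the 3 shortest members (*eif-1*, *iff-2* and *iff-1*) was called lower in both RNA kinds, and the longest, *ifg-1*, in neither, while *eif-3.C*, at 2694 nt, was called lower in both.

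**Figure D5:**
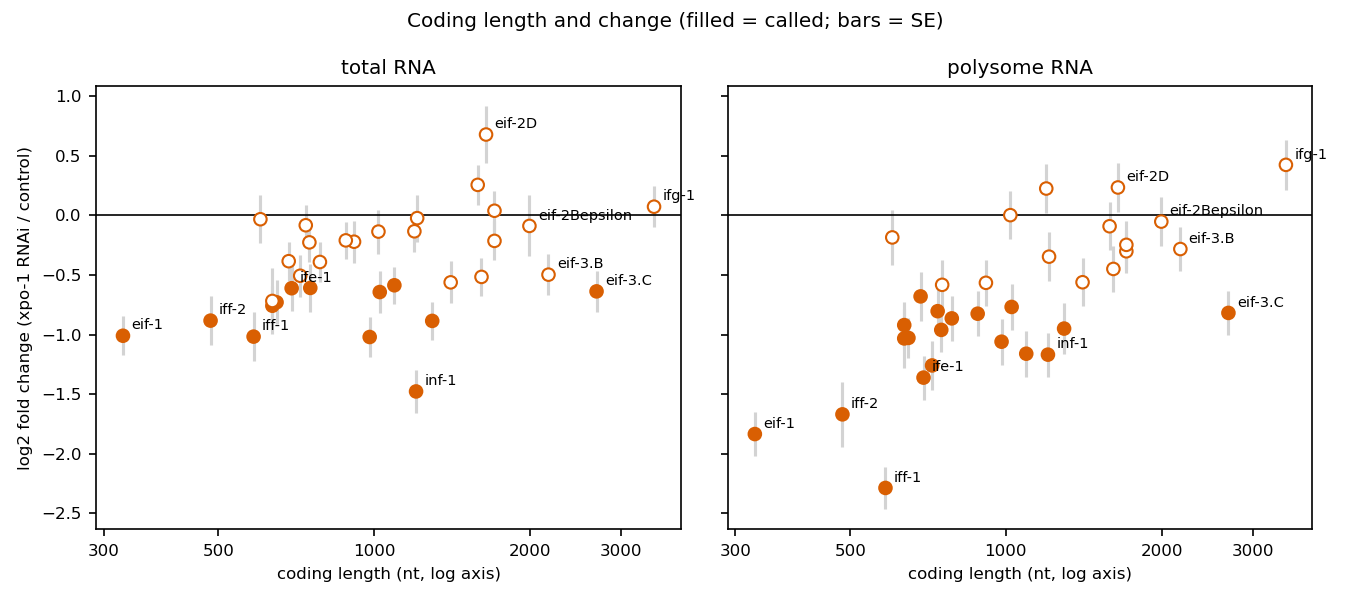
Log2 fold change (*xpo-1* RNAi over control, vertical axis, bars are standard errors) against coding length (nt, log axis) for the 34 members in total RNA (left) and polysome RNA (right), with filled points for called members. The shortest members, *eif-1*, *iff-2* and *iff-1*, lie lowest in polysome RNA and the longest, *ifg-1*, lies highest.

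Other genes around initiation lay outside the symbol rule. Of 7 other initiation genes 1 (*pab-1*) was called lower in total RNA and none higher, and in polysome RNA 3 were lower (*drr-2*, *cif-1* and *pab-1*) and 1 higher (*pab-2*). The median of the 7 was -0.43 in total RNA and -0.09 in polysome RNA, against -0.50 and -0.79 for the members. *drr-2*, whose product resembles the eIF4A helper eIF4H, was in polysome RNA at 98.6 and 114 CPM under *xpo-1* RNAi, against 274 and 292 CPM in controls (log2 fold change -1.42, SE 0.19, adjusted p 0.00104). Of 22 regulators and partners 4 were called lower and 2 higher in total RNA, and 4 lower and 5 higher in polysome RNA, with medians of -0.06 and 0.05. Those counts stand beside 16.9% of all genes called lower and 12.0% higher in total RNA, and 22.4% lower and 15.5% higher in polysome RNA, and are no result about the list.

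The lowest called values of the list in total RNA belonged to RNA-binding partners that keep messenger RNA silent in the germ line. *car-1* was at 821 and 673 CPM under *xpo-1* RNAi, against 2449 and 2340.2 CPM in controls (log2 fold change -1.68, SE 0.21, adjusted p 0.000395). *ifet-1*, the counterpart of the eIF4E-binding protein 4E-T, was at 259 and 286 CPM under *xpo-1* RNAi, against 593 and 571 CPM in controls (log2 fold change -1.10, SE 0.17, adjusted p 0.00137). *cgh-1*, a helicase found with both, had a log2 fold change of -0.86 in total RNA and of -0.33 in polysome RNA, the second not past the test. *car-1* was also called lower in polysome RNA (log2 fold change -1.02, SE 0.20, adjusted p 0.00479), and *dohh-1*, whose enzyme completes hypusine on eIF5A, fell there beside both eIF5A genes, at 40.3 and 40.8 CPM under *xpo-1* RNAi, against 86.0 and 87.7 CPM in controls (log2 fold change -1.10, SE 0.20, adjusted p 0.00321).

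The list holds 6 protein kinases, set together here after their values were seen. Of these 1 (*pek-1*) was called higher in total RNA and 4 (*pek-1*, *mnk-1*, *aak-2* and *let-363*) in polysome RNA, against 12.0% and 15.5% of all genes. As the kinases were grouped after their values were seen, these counts are no result about kinases as a group. *gcn-2* and *rsks-1* were called in neither, with polysome log2 fold changes of 0.61 (adjusted p 0.0580) and 0.39 (adjusted p 0.158). *pek-1*, the gene for PERK, the kinase of eIF2 alpha at the endoplasmic reticulum, was in total RNA at 18.6 and 26.0 CPM under *xpo-1* RNAi, against 9.86 and 7.91 CPM in controls (log2 fold change 1.33, SE 0.24, adjusted p 0.00305). In polysome RNA it was at 74.7 and 73.0 CPM under *xpo-1* RNAi, against 32.6 and 24.3 CPM in controls (log2 fold change 1.37, SE 0.22, adjusted p 0.00211). The messenger RNA of its substrate, *eif-2alpha*, was called lower in both RNA kinds. *daf-15*, the counterpart of Raptor in the TOR complex, was called higher in total RNA (log2 fold change 0.73). *mnk-1*, the counterpart of the kinases that phosphorylate eIF4E in mammals, was in polysome RNA at 299 and 270.1 CPM under *xpo-1* RNAi, against 129 and 73.5 CPM in controls (log2 fold change 1.49, SE 0.27, adjusted p 0.00374). *aak-2*, a catalytic subunit of the energy sensor AMPK, was at 81.4 and 88.0 CPM under *xpo-1* RNAi, against 40.2 and 31.5 CPM in controls (log2 fold change 1.24, SE 0.22, adjusted p 0.00293). In total RNA these last genes had log2 fold changes of 0.11 (*mnk-1*) and -0.09 (*aak-2*), neither past the test.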

How the data were processed

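Polyadenylated RNA of whole-animal lysates and of their monosome and polysome fractions was sequenced as 11 libraries. Per the labels, the authors used Trimmomatic, STAR and featureCounts (Subread) with the WBcel235 build (versions, strand use and the treatment of multi-mapping reads were not given in the sources used here). They deposited raw counts for 46756 genes, which were used as deposited. The 3 tables of normalized values they deposited were not used. Gene coordinates are those of the count tables, on WBcel235.

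Groups and replicate numbers came from the sample labels. The methods call the libraries of the fractions biological duplicates. Whether they were separate cultures was not given in the sources used here, so p-values measure the spread between these libraries. The tests were edgeR quasi-likelihood fits (edgeR 4.0.16 in R 4.3.3, TMM scaling), with a minimum of 10 counts in 2 or more of the fitted libraries and p-values adjusted by Benjamini-Hochberg over every gene tested. Total RNA, polysome RNA and control polysome against monosome RNA were fitted apart, and the interaction (the polysome log2 fold change less the total RNA one) over 8 libraries. The script was tested on simulated data. Calls required both an adjusted p under 0.05 and a fold over 1.5. Standard errors were the log2 fold change over the square root of F. CPM were scaled by TMM within each RNA kind, and RPKM divided them by exonic length. Translation efficiency used size factors per fraction and 1 as the pseudocount. Polysome values are shares of polysome RNA and say nothing of its amount.

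Members were fixed by symbol, so every member may be named. Values in every library are given for the *ife-* and *iff-* genes, *ifg-1*, *inf-1*, eIF2, and the members with the highest and lowest log2 fold change of eIF3, eIF2B and the other factors. Of the list of other initiation genes and regulators (29 of 32 symbols matched outside the members), the called genes with the highest and lowest log2 fold changes, at most 3 each way in each RNA kind, were named. *let-363*, *gcn-2*, *rsks-1*, *egl-45*, *cif-1*, *pab-1*, *pab-2*, *gld-1*, *glp-1* and *cbd-1* were singled out after their values were seen. The members, lists and marker genes were chosen with earlier results of these data known. Alternatives were RLE scaling, scaling by total counts, DESeq2 1.42.0, other count minimums, the adjusted p alone, a replicate block, other pseudocounts, other lengths for shares, and leaving out each library.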

Additional observations from a re-analysis of the deposited data

How the results depend on the processing

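Of the calls, 5 of 13 in total RNA (*eif-1*, *eif-3.E*, *eif-3.I*, *iff-1* and *inf-1*) and 6 of 19 in polysome RNA (*eif-1*, *eif-1.A*, *ife-1*, *iff-1*, *iff-2* and *inf-1*) held under every alternative run. With 2 libraries a group, leaving out 1 gave 5 to 16 called members in total RNA, 6 to 22 in polysome RNA, 0 to 1 for the interaction, 7 to 10 for control polysome against monosome RNA, and 8 to 16 members beyond 2-fold in translation efficiency. The share of all genes called moved as well in these fits, and the lone library was assumed to vary like the other group. RLE scaling gave 9 members for control polysome against monosome RNA (7 higher and 2 lower), against 33.1% of all genes called in either direction.

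Scaling by total counts alone gave 7 called members in total RNA and 12 in polysome RNA, against 35.9% and 48.1% of all genes, and 6 beyond 2-fold in translation efficiency. It turned the sign of uncalled members. In total RNA the log2 fold change became 0.060 for *eif-2beta*, 0.065 for *eif-2Balpha*, 0.15 for *eif-2Bbeta*, 0.21 for *eif-2Bepsilon*, 0.27 for *eif-2Bgamma*, 0.073 for *eif-3.D*, 0.078 for *eif-3.F*, 0.15 for *eif-4A3*, 0.25 for *ife-5* and 0.20 for *eif-6*. In polysome RNA it became 0.11 for *eif-2A*, 0.32 for *eif-2Bdelta*, 0.36 for *eif-2Bepsilon*, 0.065 for *eif-2Bgamma*, 0.12 for *eif-3.B*, 0.16 for *eif-3.D* and 0.22 for *ife-5*. *eif-2Bbeta* was at -0.054 in polysome RNA with at least 10 counts in every library.

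Leaving out single libraries turned the sign of members near 0. In total RNA the range was -0.034 to 0.086 for *eif-2A*, -0.36 to 0.13 for *eif-2Bepsilon*, -0.16 to 0.048 for *eif-2Bgamma*, -0.29 to 0.0029 for *eif-4A3*, -0.22 to 0.13 for *ife-5*, -0.099 to 0.22 for *ifg-1* and -0.24 to 0.058 for *eif-6*. In polysome RNA it was -0.14 to 0.091 for *eif-2Bbeta*, -0.21 to 0.018 for *eif-2Bdelta* and -0.12 to 0.052 for *eif-2Bepsilon*. The members' median for the interaction ran from -0.28 to 0.11.

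For the interaction DESeq2 gave 2 members lower, against 383 lower and 282 higher of 14900 genes. With no count minimum 1 member was lower, against 301 lower and 275 higher of 22741 genes. Replicate numbers were shared between groups, but libraries of the same number did not all deviate together (correlation of deviations 0.05 between *xpo-1* RNAi and control total RNA, 0.09 in polysome RNA, -0.41 between *xpo-1* RNAi polysome and total RNA, and 0.80 between control polysome and total RNA). A replicate block gave 15 of 34 members called in total RNA and 20 in polysome RNA, against 33.7% and 43.6% of all genes. It gave 3 lower in the interaction (*iff-1*, *eif-1* and *eif-3.K*) and none higher, against 976 lower and 985 higher of 14900 genes. For control polysome against monosome RNA it gave 16 members higher and 3 lower, against 4082 higher and 4146 lower of 14510 genes. A crossed pairing of the *xpo-1* RNAi libraries, chosen after seeing the data, gave 7 of 34 members in the interaction, all lower. Of 14900 genes it called 1439 lower and 1547 higher.

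The difference in share (*xpo-1* RNAi minus control, in percentage points) of *ife-5* was 0.838 in total RNA and 0.465 in polysome RNA from counts not divided by length, and 0.991 and 0.563 with coding length. Without single libraries it ran from -1.80 to 0.452 for *ife-3* in total RNA, from -0.0842 to 4.47e-05 for *ife-4* in total RNA, from -0.155 to 0.0548 for *ife-4* in polysome RNA, and from -4.95 to 1.43 for *iff-1* in total RNA. The causes of these changes were not tested. At 15589628 counts or more per library, depth left every member well above the count minimum, and the number of libraries limits the precision.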
